A study of Drosophila melanogaster with 9 samples.

Results

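Antisense RNA genes that were measurably expressed in adult Drosophila melanogaster were examined in 9 RNA sequencing libraries of flies overexpressing Dube3a and of their controls. A gene was taken when its symbol in the RefSeq annotation begins with asRNA: and its raw count, summed over its transcripts, averaged at least 100 over the 9 libraries. The members were thus selected on their mean count over all libraries, with no use of genotype, which gave 133 of the 461 antisense genes in the table, which holds 15413 genes and unmatched transcripts in all. Just inside the minimum lay CR45009 with a mean count of 100, CR45210 with 101 and CR44049 with 102, and just outside it lay CR45028 with 95.8, CR45272 with 94.3 and CR44370 with 92. The prefix asRNA: is left off the names below.

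The study measured the effect of raised Dube3a in the brain, in glial or in neuronal cells. Dube3a, named Ube3a in the annotation, is the fly version of UBE3A, an E3 ubiquitin ligase. All 9 libraries came from flies carrying the UAS-Dube3a transgene. The 3 control libraries carried it alone, the 3 glial libraries added repo-GAL4, a driver active in glia, and the 3 neuronal libraries added elav-GAL4, a driver active in neurons. Because every driver was combined with the transgene, effects of GAL4 insertion, of Dube3a and of any difference in strain background cannot be told apart. Flies were kept at 25 degrees to an age of 3 to 5 days, and RNA came from pools of 15 to 25 heads according to the design text, while the sample labels name dissected brain. The sex of the flies is not given. The labels do not say whether the 3 libraries of a genotype came from separate crosses, so p-values refer to the spread among these samples, which may be technical.

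A natural antisense RNA is transcribed from the DNA strand opposite another gene, called here the sense gene, and can form base pairs with its RNA. Some antisense RNAs are known to interfere with transcription of the sense gene or to mask or stabilise its RNA, and others have no known function. In Drosophila many such genes are annotated, most of them long noncoding RNAs that overlap a protein-coding gene. Whether a short read belongs to the sense or the antisense RNA can be seen only in a library that keeps the strand. Strand handling is not given in the sources used here, so in stretches where both genes have exons their reads cannot be told apart, and each antisense value is therefore given beside that of its sense gene.

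Library totals ran from 35550949 to 60322417 counts. Ube3a lay between 30.6 and 39.6 CPM (the usual unit of counts scaled to library size, here adjusted by TMM) in the controls. With repo-GAL4 it lay between 189 and 220 CPM and with elav-GAL4 between 61.5 and 76.9 CPM. Each library was on the side of its label, though transgene and native RNA are counted together. The gene w also differed, at 19.5 to 21.7 CPM in the controls, 154 to 190 CPM with repo-GAL4 and 52.6 to 65.2 CPM with elav-GAL4. What underlies the difference in w was not tested. Among the markers of other tissues, the 6 photoreceptor genes summed to between 38470 and 56480 CPM, with the rhodopsin gene ninaE at 29150 CPM or more in every library, so RNA of the eye was present. The 6 fat body markers, which include the yolk protein genes, summed to 84510 to 144800 CPM in the controls, 39890 to 155500 in the glial and 55650 to 75760 in the neuronal libraries, and the 5 muscle markers to between 6322 and 10560 CPM in all libraries. The 22 gut markers, trypsins, other proteases and sugar-cleaving enzymes, summed to between 2196 and 54160 CPM, with low and high libraries in the control and glial groups alike. Of the 5 testis markers 2 were in the table: Mst87F did not exceed 0.12 CPM, while bol stood at 67.5 to 79.5 CPM in the control and glial libraries and 85.6 to 107 CPM in the neuronal ones. The 3 ovary markers in the table summed to at most 1.40 CPM. The 5 neuron markers summed to between 1785 and 2099 CPM in the neuronal libraries, above the 1471 to 1595 CPM of the controls and the 1293 to 1570 CPM of the glial libraries. The sums of the 5 glia markers overlapped, at 1424 to 2249 CPM in the glial libraries against 2180 to 2792 CPM in the controls. The marker alrm stood at 71.8 to 119.5 CPM in the glial libraries, below the controls (256.7 to 372.3) and neuronal libraries (234.2 to 349.3). In contrast, moody stood at 145.7 to 264.1 CPM there, above both (88.1 to 114.7 and 83.4 to 123.5). Against control, repo and Eaat1 were also lower in every glial library, while Gs2 overlapped. In bulk samples such as these, fewer cells of a type and less RNA per cell cannot be told apart.

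The 133 genes lay on every large chromosome arm, 30 on 3R, 29 on 3L, 28 on 2R, 24 on 2L, 17 on X and 5 on chromosome 4. In the exon model of the Ensembl annotation (BDGP6.54) every one of them overlapped a protein-coding sense gene. Of the 133, 112 overlapped 1 gene on the other strand and 21 overlapped more than 1, in which case the gene sharing the most exon bases was taken as the sense gene. The share of exon bases that also lay in exons of a gene on the opposite strand had a median of 79.4% and ran from 9.20% to 100%. In 17 genes the exons lay inside opposite-strand exons, which here means at least 95% of their bases, and in the other 116 they were partly shared. There were 9 genes with no exon base free of other genes, and 11 that shared exon bases with a gene on their own strand, where no strand information could separate the reads. The antisense genes below the count minimum were shorter, with a median of 815 exon bases against 1455, and shared less, with a median of 62.1%.

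Expressed antisense RNAs were mostly low in level. The mean level had a median of 3.92 CPM per kb of exon and ran from 0.785 to 2657, while the sense genes had a median of 12.3 CPM per kb and ran from 0.717 to 13159. Per kb, 122 antisense genes lay below their sense gene and 11 above it. These levels sum all transcripts of a gene, and how reads common to several transcripts were counted is not given. If such reads counted for each transcript, genes with several transcripts would stand too high per kb, which was not tested. The median antisense level was 37.2% of the sense level, with the middle of the distribution between 17.2% and 64.0%. For the 17 genes whose exons lay inside opposite-strand exons this median was 49.0%, and for the 116 others 36.6%. Across the 133 pairs the log2 levels per kb of antisense and sense gene correlated with Pearson's r = 0.72 and Spearman's rho = 0.63, a description across genes whose exons overlap and whose values come from the same libraries.

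**Figure D1:**
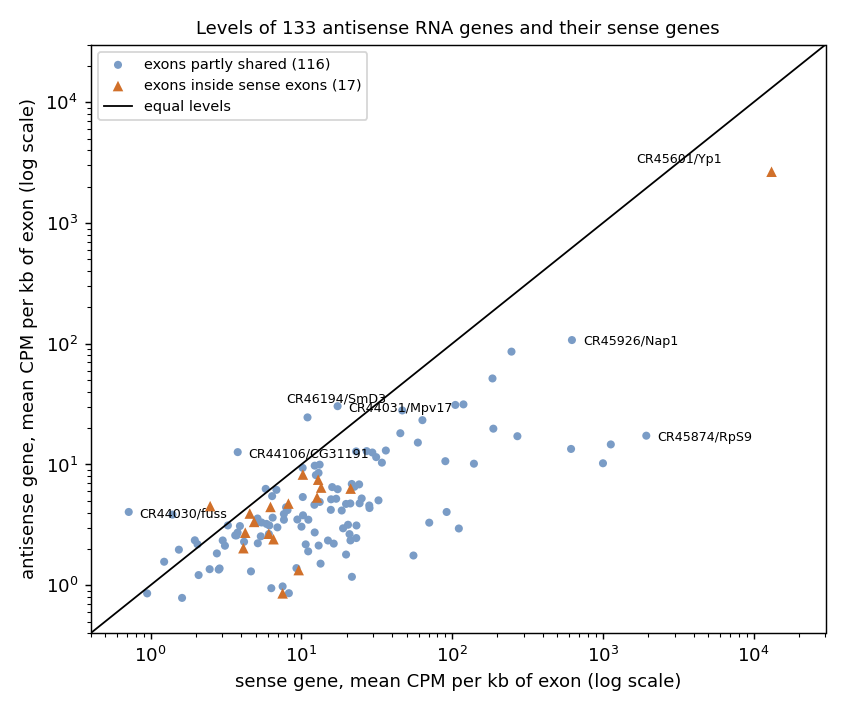
Mean level over 9 libraries of each antisense gene (vertical axis) against that of its sense gene (horizontal axis), both in CPM per kb of exon on log scales; triangles mark the 17 genes whose exons lie inside opposite-strand exons and dots the other 116. Of the 133 points, 122 lie under the line of equal levels, and CR45601, opposite Yp1, stands far above the others at 2657 CPM per kb.

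CR45601 alone made up 63.3% of the CPM of the 133 genes. It lies on the X chromosome with all of its 875 exon bases inside exons of Yp1, a yolk protein gene expressed in the fat body of adult females. Its level was 3389, 2123 and 2167 CPM in control libraries 1 to 3, 954, 3666 and 3804 CPM in the glial libraries, and 1406, 1642 and 1774 CPM in the neuronal libraries. The glial libraries held both the highest and the lowest value and overlapped the other groups, while all 3 neuronal libraries lay below all 3 controls. The neuronal difference from control did not pass the test (log2 fold change -0.67 ± 0.45 SE, edgeR adjusted p = 0.578). Yp1 itself stood at 30142, 21562 and 16946 CPM in the controls, 8070, 32370 and 33701 CPM in the glial and 12117, 20253 and 15625 CPM in the neuronal libraries, so the same glial library 1 was lowest for both genes. The CR45601 count stayed between 8.11% and 12.8% of the Yp1 count in all 9 libraries. The 3 yolk protein genes together took 4.16% of all counts in glial library 1 and 14.1% in control library 1, the extremes. With CR45601 the antisense genes held between 0.256% and 0.478% of a library's counts, and without it between 0.120% and 0.153%.

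After CR45601, the highest levels were those of CR45926 with 107 CPM per kb, opposite the nucleosome assembly gene Nap1, and CR44704 with 86.0 CPM per kb, opposite CG10527. CR43964, opposite CG15093, reached 51.6 CPM per kb. The rest of the 10 highest genes lay between 23.3 and 31.5 CPM per kb, in falling order CR44431 opposite the microsomal glutathione S-transferase gene Mgstl, CR45485 opposite Had1, CR44031 opposite Mpv17, CR45955 opposite CG32444, CR46194 opposite the small ribonucleoprotein core gene SmD3, and CR43786 opposite the inositol phosphate kinase gene Ip6k. CR45926 was among the steadiest, at 153, 126 and 173 CPM in the controls, 127, 153 and 123 CPM in the glial and 143, 128 and 139 CPM in the neuronal libraries. Its groups overlapped and the glial difference was small (log2 fold change -0.17 ± 0.15 SE, edgeR adjusted p = 0.582).

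The antisense levels lowest relative to the sense gene, whose own level is the divisor of this ratio, were the following. CR45874 stood at 0.891% of the ribosomal protein gene RpS9 per kb, CR45024 at 1.02% of CG4000, CR31144 at 1.30% of the ribosomal protein gene RpL3, CR45894 at 2.18% of Pdh, a photoreceptor dehydrogenase, and CR43629 at 2.66% of CG31522. Their overlaps differed widely, with 58.6% of the exon bases of CR45874 shared with RpS9, 29.3% of CR45024 with CG4000, 73.7% of CR31144 with RpL3, 84.7% of CR45894 with Pdh and 9.20% of CR43629 with CG31522. At the other end CR44030 stood at 564% of fuss, a gene of the Ski and Sno family of transcriptional regulators, CR44106 at 334% of CG31191, CR45009 at 275% of the fucosyltransferase gene FucTC, CR46194 at 223% of SmD3, and CR43463 at 182% of Pgant35A, which encodes a glycosyltransferase that starts mucin-type O-glycans. Of these, CR46194 shared 13.0% of its exon bases with SmD3 and 21.1% with Oda, a gene on its own strand at 2446 to 3910 CPM, whose reads cannot be told apart from its own there, and CR43463 lay wholly inside Pgant35A exons.

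Between libraries the antisense level moved mostly with the sense level. The SD of the log2 antisense level over the 9 libraries had a median of 0.34, that of the sense level 0.27 and that of their log2 ratio 0.22. The ratio varied less than the antisense level itself in 104 of the 133 genes. Among the 33 genes whose level had an SD of at least 0.5, the ratio varied less than the level in 32 and had an SD under 0.5 in 26. CR43964 gave the steadiest ratio, with an SD of 0.06. Its level was 66.2, 78.0 and 37.4 CPM in the controls, 89.1, 89.5 and 170 CPM in the glial and 31.5, 63.9 and 67.7 CPM in the neuronal libraries. These levels span 5.40-fold with glial library 3 at the top, yet the CR43964 count lay between 28.8% and 32.9% of the CG15093 count in every library. The exons of this pair overlap over 76.1% of the antisense exon bases, and how reads of the shared stretch were assigned is not given.

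**Figure D2:**
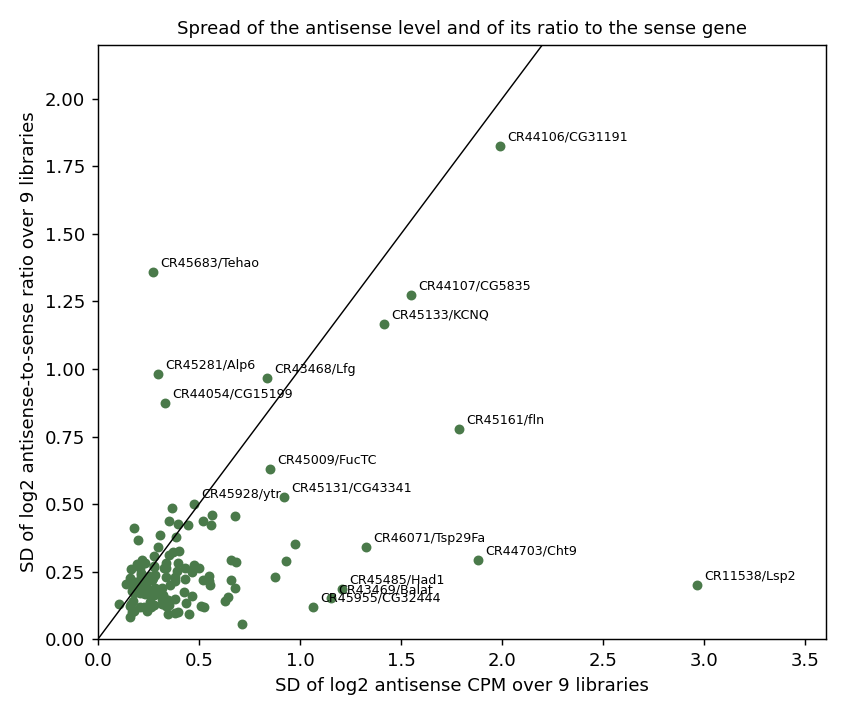
Spread of each of the 133 antisense genes over the 9 libraries, as the SD of log2 CPM (horizontal axis), against the spread of its log2 ratio to the sense gene (vertical axis); the line marks equal spread. In 104 genes the ratio lies under the line, CR11538 opposite Lsp2 lies farthest right with a steady ratio (SD 0.20), and CR44106 and CR44107 vary more than their sense genes do.

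Against control, 7 antisense genes changed in the glial line, 3 higher and 4 lower, by edgeR's quasi-likelihood test with Benjamini-Hochberg adjusted p under 0.05. All 133 genes passed the low-count filter, and 7 is 5.26% of them, beside 4.42% of all 11430 genes tested, of which 2.54% were higher and 1.88% lower. At an unadjusted p under 0.05 there were 29 antisense genes, or 21.8%, beside 19.9% of all genes. The median log2 fold change of the 133 was 0.05 and that of all genes 0.01. The 4 genes CR45485, CR45955, CR11538 and CR43469 changed together with their sense gene, while the sense genes of CR44107, CR45822 and CR45131 did not pass the test. Whether an antisense gene changed relative to its sense gene was tested with limma on the log2 ratio of the pair, fitted to all 2591 opposite-strand gene pairs. Such pairs were taken with or without shared exon bases, whereas all 133 antisense genes share exon bases with their sense gene. The shares of all pairs, here and below, are therefore not those of a like set. Here 1 antisense gene passed, CR44107, beside 2.43% of all pairs, and 10, or 7.52%, had an unadjusted p under 0.05, beside 17.3% of all pairs. DESeq2 called 14 antisense genes, 7 higher and 7 lower, beside 8.92% of the genes to which it gave an adjusted p. The 4 hemocyte markers summed to between 392 and 447 CPM in the glial libraries, above the 271 to 309 CPM of the controls. In the neuronal libraries the sum was 247 to 327 CPM. Most of the difference was Hml, at 203 to 228 CPM in the glial libraries. Hml stood at 90.5 to 106 CPM in the controls and 82.3 to 133 CPM in the neuronal libraries. NimC1 was also higher in every glial library, while Pxn and He overlapped between the groups. The glia marker alrm was lower and moody higher in every glial library than in every control, as given above. The part of the hemocyte and glia markers in the results below was not tested.

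CR45485 lies opposite Had1, a beta-hydroxy acid dehydrogenase gene on the X chromosome, and shares 84.5% of its exon bases with it. It also shares 22.4% with CG3679, a gene on its own strand that stood at 2.55 to 3.17 CPM in the controls and 7.58 to 12.2 CPM in the glial libraries and rose by 1.82 ± 0.33 (edgeR adjusted p = 0.0190). Its level was 16.5, 21.8 and 21.6 CPM in the controls, 109, 63.0 and 137 CPM in the glial and 20.2, 14.6 and 29.5 CPM in the neuronal libraries. Every glial library lay above all 6 others. The log2 fold change against control was 2.37 ± 0.33 (SE, n = 3 against 3, edgeR adjusted p = 0.00503). Had1 rose by 2.58 ± 0.37 (edgeR adjusted p = 0.00583), from 52.9, 56.6 and 58.9 CPM to 365, 222 and 420 CPM. The log2 ratio of the pair differed by -0.22 ± 0.17 (limma adjusted p = 0.56), so the difference in their changes was not detectable.

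CR45955 lies on 3L opposite CG32444, sharing 54.5% of its exon bases. It stood at 10.2, 10.6 and 10.5 CPM in the controls, 44.5, 28.0 and 41.4 CPM in the glial and 7.43, 6.14 and 10.6 CPM in the neuronal libraries. Control libraries were nearly equal and every glial library lay above them. The log2 fold change was 1.86 ± 0.23 (edgeR adjusted p = 0.00318), that of CG32444 was 1.71 ± 0.23 (edgeR adjusted p = 0.00466), and the CR45955 count lay between 26.5% and 35.3% of the CG32444 count in all libraries.

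CR11538 gave the largest rise, opposite Lsp2 on 3L, which encodes larval serum protein 2, a storage protein of the fat body. Its level was 8.33, 2.66 and 1.16 CPM in the controls, 60.2, 77.7 and 229 CPM in the glial and 7.62, 0.46 and 2.80 CPM in the neuronal libraries. The groups of glial and other libraries did not overlap, but the controls themselves differed by several-fold. The log2 fold change was 4.92 ± 1.08 (edgeR adjusted p = 0.037), beside 4.68 ± 1.05 for Lsp2 (edgeR adjusted p = 0.0400), with 161, 206 and 577 CPM of Lsp2 in the glial libraries against 3.78 to 22.5 CPM in the controls. The CR11538 count was 25.0% to 39.6% of the Lsp2 count over a range of 497-fold in its own level. Leaving out control library 1, 2 or 3, glial library 2 or 3, or neuronal library 3 ended the call, with adjusted p between 0.0563 and 0.109. The summed fat body markers, of which Lsp2 is itself a member, overlapped between the glial group and each of the other groups. That sum consists mostly of Yp1, Yp2 and Yp3, which overlapped, as did Fbp1. The marker apolpp did not overlap, at 1289 to 1449 CPM in the glial libraries. It stood at 864 to 1150 CPM in the controls and 830 to 1035 CPM in the neuronal libraries. The part of fat body RNA in the result was not tested.

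CR43469 fell most evenly. It lies on 2R opposite Balat, a beta-alanine transporter gene, and shares 87.2% of its exon bases. Its level was 6.69, 6.98 and 8.72 CPM in the controls, 1.60, 1.55 and 1.75 CPM in the glial and 9.60, 7.73 and 9.40 CPM in the neuronal libraries. All 3 glial libraries lay far under the lowest of the others and close to each other. The log2 fold change was -2.19 ± 0.18 (edgeR adjusted p = 0.000384), that of Balat was -2.25 ± 0.22 (edgeR adjusted p = 0.00114), and the difference in their ratio was 0.08 ± 0.24 (limma adjusted p = 0.917).

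CR44107 parted from its sense gene. It is the shortest of the 133, with 380 exon bases on 3R, of which 94.2% lie in exons of CG5835. Its counts were 222, 200 and 245 in the controls, 61, 16 and 11 in the glial and 154, 117 and 131 in the neuronal libraries. In CPM these were 5.87, 5.92 and 5.90, then 0.93, 0.44 and 0.36, then 3.23, 2.99 and 3.49, so the 3 groups were fully separated with the glial group lowest. CG5835 stood at 18.6, 21.5 and 25.0 CPM in the controls, 19.2, 10.2 and 13.1 CPM in the glial and 17.9, 14.1 and 17.8 CPM in the neuronal libraries, the glial group overlapping both others and the neuronal group lying just under the controls. The antisense gene fell by 3.31 ± 0.33 on the log2 scale (edgeR adjusted p = 0.00115), while CG5835 differed by -0.62 ± 0.23 (edgeR adjusted p = 0.181). Relative to CG5835 it fell by 2.71 ± 0.27 (limma adjusted p = 0.00169): its count was 23.6% to 31.6% of the sense count in the controls, 18.0% to 21.3% in the neuronal and 2.72% to 4.85% in the glial libraries.

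CR45822 lies on 3L opposite CTCF, which encodes an insulator protein of chromatin, and shares 79.4% of its exon bases. It stood at 6.58, 5.53 and 5.80 CPM in the controls, 2.78, 2.32 and 3.07 CPM in the glial and 5.92, 5.88 and 5.51 CPM in the neuronal libraries. The glial libraries lay below all others, whereas CTCF was nearly level, between 15.8 and 22.1 CPM in all 9 libraries. The log2 fold change was -1.13 ± 0.17 (edgeR adjusted p = 0.00663) beside -0.20 ± 0.13 for CTCF (edgeR adjusted p = 0.453). Their ratio differed by -0.93 ± 0.21 and did not pass (limma adjusted p = 0.0535).

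CR45131 lies on 2R opposite CG43341, with which it shares 28.3% of its exon bases, and also overlaps M7BP. Its level was 12.3, 11.9 and 9.25 CPM in the controls, 2.88, 3.30 and 4.98 CPM in the glial and 11.8, 17.3 and 11.8 CPM in the neuronal libraries. Again all glial libraries lay below the rest. The log2 fold change was -1.59 ± 0.25 (edgeR adjusted p = 0.00998). CG43341, at 1.46 to 5.70 CPM, differed by -0.68 ± 0.35 (edgeR adjusted p = 0.328), and M7BP, at 355 to 582 CPM, by 0.43 ± 0.14 (edgeR adjusted p = 0.137). The ratio to CG43341 differed by -0.95 ± 0.31 and did not pass (limma adjusted p = 0.151). Against CG43341 and M7BP summed, the ratio differed by -2.02 from control (limma adjusted p = 0.00363) and by -1.95 from the neuronal line (limma adjusted p = 0.00422), and passed.

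**Figure D3:**
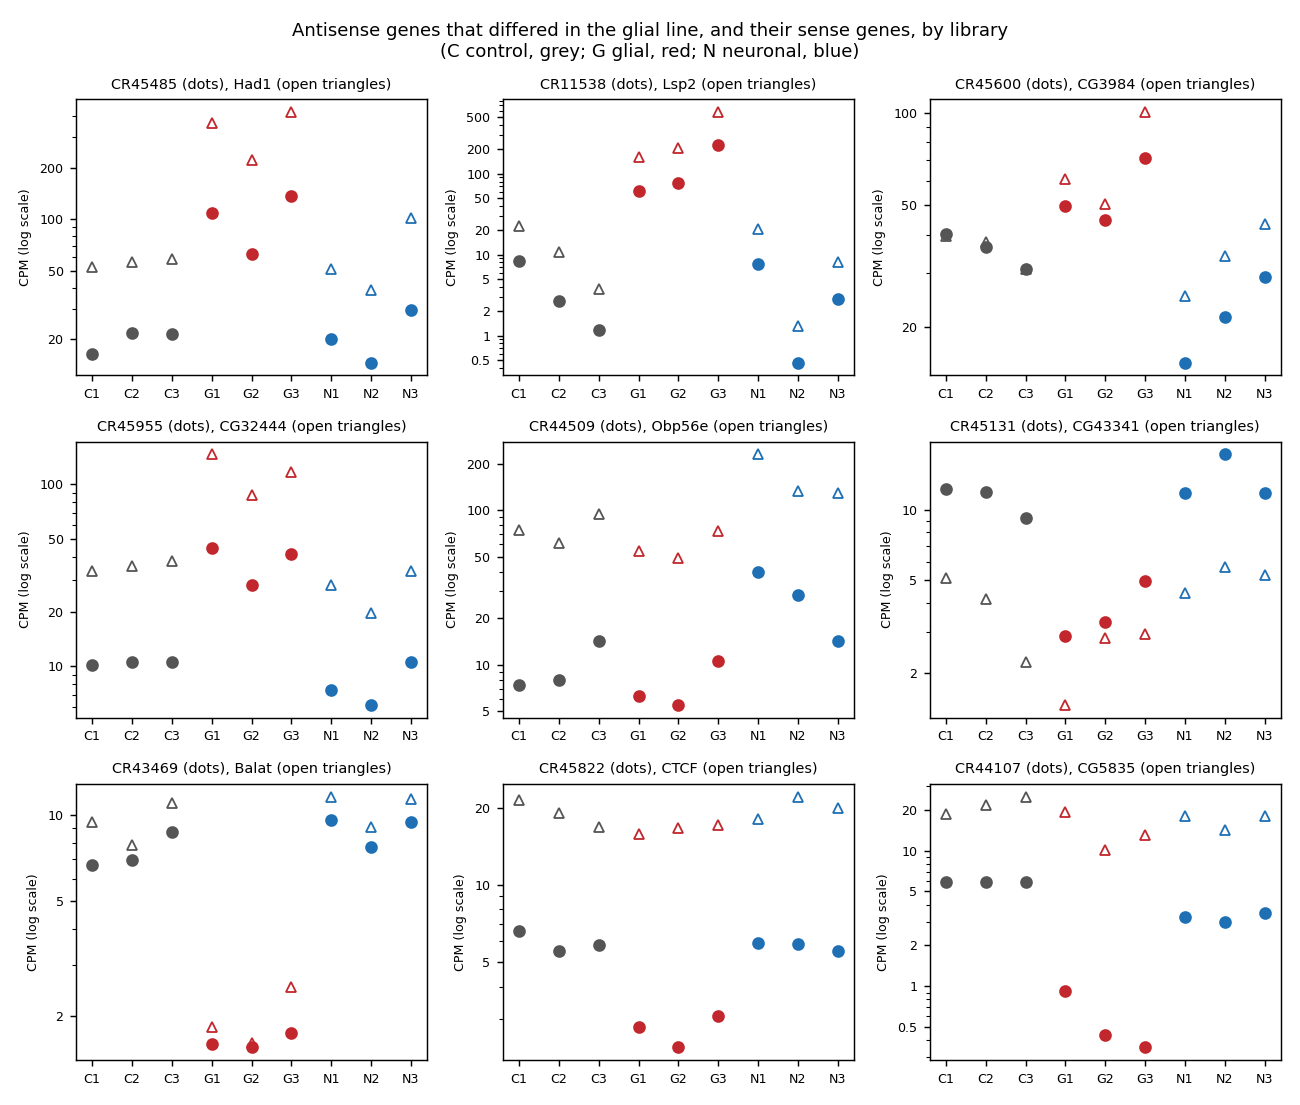
Level in CPM on a log scale (vertical axis) of the 9 antisense genes that differed between the glial line and another group (dots) and of their sense genes (open triangles), in each of the 9 libraries (horizontal axis; C control, G glial, N neuronal). For CR45485, CR11538, CR45955 and CR43469 dots and triangles move together, while for CR44107 the 3 glial dots drop to between 0.36 and 0.93 CPM and the triangles stay between 10.2 and 25.0 CPM.

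The reverse case, a sense gene that changed in the glial line with an antisense gene that did not pass, occurred in 3 pairs. The sense gene l(2)34Fc rose by 1.45 ± 0.34 (edgeR adjusted p = 0.0474), while its antisense gene CR44850 stood at 3.02, 2.84 and 7.72 CPM in the glial libraries against 1.69 to 1.98 CPM in the controls (edgeR adjusted p = 0.101). CG31522 fell by 1.03 ± 0.17 (edgeR adjusted p = 0.0131) and CG11699 fell by 0.63 ± 0.15 (edgeR adjusted p = 0.0447). Their antisense genes CR43629 and CR44266 had adjusted p of 0.506 and 0.181 by edgeR. CR43629 shares 9.20% of its exon bases with CG31522, and CR44266 shares 65.0% with CG11699. Over all 133 pairs, antisense and sense log2 fold changes had the same sign in 110, with Pearson's r = 0.87 and Spearman's rho = 0.81 across genes. The exons of these pairs overlap and strand handling is not given, so the same reads may enter both fold changes.

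**Figure D4:**
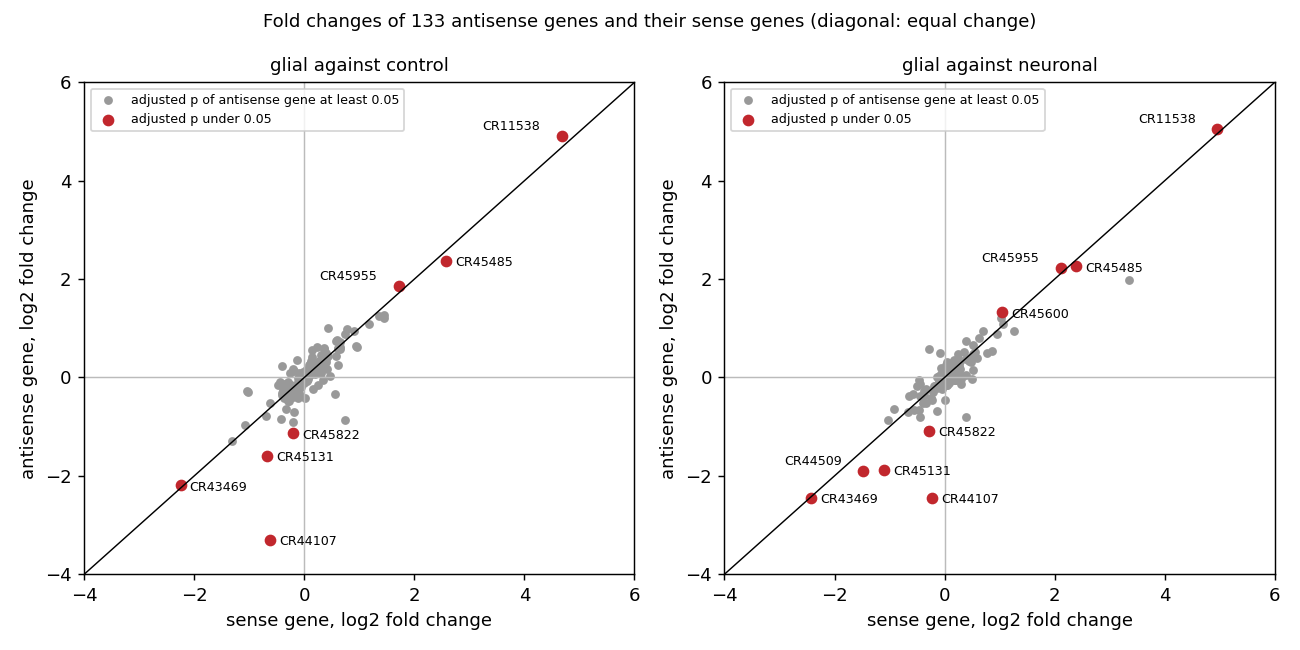
Log2 fold change of each of the 133 antisense genes (vertical axis) against that of its sense gene (horizontal axis) for the glial line against control (left) and against the neuronal line (right), with the diagonal of equal change; red points passed the test, grey points did not. CR11538, CR45485, CR45955 and CR43469 lie near the diagonal in both panels, and CR44107, at -3.31 and -2.44, lies well under it; the panels share the glial libraries.

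Against control, 0 antisense genes passed in the neuronal line by edgeR, beside 0.709% of all genes (0.306% higher, 0.402% lower), and 13 had an unadjusted p under 0.05, or 9.77% beside 13.3% of all genes. DESeq2 called 5, beside 3.57% of the genes with an adjusted p, and limma-voom 0, beside 0.534% of all genes. The summed neuron markers were higher and the summed fat body markers lower in every neuronal library than in every control, as given above. Singly, elav, Syt1, brp and para were higher throughout, while nSyb overlapped. Yp2 and Yp3 were lower throughout, while Yp1, Lsp2, Fbp1 and apolpp overlapped. The part of these markers in this comparison was not tested. The median log2 fold change of the 133 was -0.01. The smallest adjusted p was 0.0621, for CR44850 on 2L, opposite l(2)34Fc, with which it shares 88.2% of its exon bases. It stood at 1.96, 1.98 and 1.69 CPM in the controls and 8.44, 6.37 and 6.98 CPM in the neuronal libraries. These did not overlap, and l(2)34Fc was likewise higher, at 15.5 to 21.2 CPM against 5.18 to 6.87 CPM, with an edgeR adjusted p of 0.0881.

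CR43454, opposite the sodium/proton antiporter gene Nha2, was at the low end in neuronal libraries, with 2.02, 2.71 and 1.60 CPM against 6.05, 4.41 and 6.12 CPM in the controls. Its groups did not overlap, but it missed the threshold (edgeR adjusted p = 0.0735). Nha2 itself fell by 0.72 ± 0.13 on the log2 scale (edgeR adjusted p = 0.0449), from 62.4 to 75.1 CPM in the controls to 39.9 to 47.5 CPM in the neuronal libraries. It was the 1 sense gene of the 133 to pass in this comparison. The antisense to sense ratio passed in 0 pairs by limma, beside 0% of all pairs, and 4, or 3.01%, had an unadjusted p under 0.05, beside 12.5% of all pairs. CR44107, lowest in the glial line, had 2.99 to 3.49 CPM in the neuronal libraries, below all 3 controls, with an edgeR adjusted p of 0.264.

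Between the glial and the neuronal line 9 antisense genes differed, 4 higher and 5 lower in the glial line, or 6.77% beside 3.69% of all genes (2.02% higher, 1.67% lower), and 26 had an unadjusted p under 0.05, or 19.5% beside 18.2%. DESeq2 called 14, 7 higher and 7 lower, beside 7.92% of the genes with an adjusted p. The sums of the neuron and of the hemocyte markers, given above, did not overlap between the lines, although the single markers nSyb, Pxn and He did. The glia markers alrm and moody did not overlap either, while repo, Gs2 and Eaat1 did. The part of the neuron, hemocyte and glia markers was not tested. This comparison shares the glial libraries with the one against control. The 7 genes named above were among the 9, with log2 fold changes of 2.26 ± 0.33 for CR45485, 5.06 ± 1.08 for CR11538, 2.24 ± 0.24 for CR45955, -2.45 ± 0.18 for CR43469, -1.88 ± 0.25 for CR45131, -1.09 ± 0.17 for CR45822 and -2.44 ± 0.33 for CR44107. Of these 7, only CR11538 lost its call when a library was left out, which happened without glial library 2 or 3, without neuronal library 1, 2 or 3, and without control library 2, with edgeR adjusted p between 0.051 and 0.14. The ratio to the sense gene passed for CR44107 alone, with a difference of -2.24 ± 0.27 (limma adjusted p = 0.00426), beside 1.85% of all pairs, and 7, or 5.26%, had an unadjusted p under 0.05, beside 14.8% of all pairs.

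The other 2 were CR45600 and CR44509. CR45600, on 3R opposite CG3984, stood at 49.4, 44.6 and 70.9 CPM in the glial, 15.2, 21.5 and 29.0 CPM in the neuronal and 40.3, 36.5 and 30.8 CPM in the control libraries. The glial libraries were highest, the neuronal lowest and the controls between them. The glial to neuronal log2 difference was 1.33 ± 0.25 (edgeR adjusted p = 0.0243), and that of CG3984, which did not pass, was 1.04 ± 0.28 (edgeR adjusted p = 0.0762). Leaving out glial library 3, neuronal library 1 or neuronal library 2 ended the call, with adjusted p of 0.088, 0.0739 and 0.0865.

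CR44509 lies on 2R opposite Obp56e, an odorant-binding protein gene, and shares 59.5% of its exon bases. It stood at 6.28, 5.48 and 10.5 CPM in the glial, 40.0, 28.3 and 14.2 CPM in the neuronal and 7.40, 7.93 and 14.3 CPM in the control libraries. The neuronal libraries lay above the glial ones but spread widely, the lowest of them just under the highest control. The glial to neuronal log2 difference was -1.89 ± 0.42 (edgeR adjusted p = 0.0447), and Obp56e differed by -1.47 ± 0.27 (edgeR adjusted p = 0.0197). Leaving out any library but control 3 or neuronal 3 ended the call for CR44509, with adjusted p between 0.0554 and 0.144. In 4 other pairs the sense gene differed between the lines and the antisense gene did not pass. Pdi, a protein disulfide isomerase gene, the glial amino acid transporter gene gb (genderblind), and Sodh2, a sorbitol dehydrogenase gene, were higher in the glial line, with log2 differences of 0.69, 0.87 and 1.02, and CG11699 was lower, at -0.91 (edgeR adjusted p from 0.0119 to 0.0495). Their antisense genes are CR45396, CR45209, CR45195 and CR44266.

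Several antisense genes varied widely within genotypes. Over all libraries, regardless of genotype, the highest exceeded the lowest by at least 5-fold in 17 of the 133 genes. That count includes genes that differed between genotypes, such as CR11538 and CR45485. The genes described next were chosen after their values were seen, for their spread within genotypes, and carry no test. CR44703 on 2R lies opposite the chitinase gene Cht9. It stood at 2.14, 8.25 and 0.29 CPM in the controls, 9.59, 0.41 and 9.57 CPM in the glial and 5.36, 7.52 and 5.70 CPM in the neuronal libraries. It was thus lowest in control library 3 and glial library 2, as was Cht9, which ran from 1.20 to 58.4 CPM. Averaged over 20 gut markers, log2 CPM came to 4.06, 7.24 and 3.53 in the controls, 7.21, 3.63 and 7.07 in the glial and 5.07, 6.95 and 7.02 in the neuronal libraries, which is lowest in the same pair of libraries. CR46071, opposite the tetraspanin gene Tsp29Fa, ran from 0.96 to 9.99 CPM and was likewise low in controls 1 and 3 and glial library 2, while Tsp29Fa ran from 6.08 to 83.8 CPM.

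In a pair of genes the antisense level followed the same libraries while the sense gene did not. CR44106 lies on 3R opposite CG31191, with 71.7% of its exon bases shared. It stood at 11.1, 24.8 and 1.59 CPM in the controls, 14.0, 0.44 and 15.8 CPM in the glial and 22.2, 23.0 and 18.5 CPM in the neuronal libraries. CG31191 stayed between 11.8 and 19.4 CPM in all 9, so that the antisense count was 2.97% of the sense count in glial library 2 and 131% in control library 2. CR45133 lies on 2R opposite the potassium channel gene KCNQ, and stood at 0.58, 3.99 and 0.53 CPM in the controls, 5.43, 0.71 and 4.01 CPM in the glial and 0.74, 3.79 and 4.31 CPM in the neuronal libraries. The 4 libraries under 1 CPM were the 4 with the lowest gut marker level, and KCNQ ran only from 35.3 to 81.8 CPM. The part of gut RNA in these levels was not tested.

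CR45161 on 3L lies opposite fln, which encodes flightin, a protein of the thick filaments of flight muscle. It stood at 2.75, 9.23 and 2.99 CPM in the controls, 0.46, 0.41 and 22.7 CPM in the glial and 2.33, 1.77 and 1.78 CPM in the neuronal libraries. Control library 2 and glial library 3 were highest, and fln was highest in the same libraries with 72.3 and 172 CPM against 1.59 to 12.1 CPM elsewhere. Act88F, the flight muscle actin, was also highest there with 686 and 2189 CPM against 147 to 323 CPM in the other 7. The remaining muscle markers were not: Mhc was highest in neuronal library 2, up and Mlc2 in neuronal library 1, and wupA in control library 3. The part of muscle RNA in the level of CR45161 was not tested.

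In a few genes the sense gene varied and the antisense gene was steady. CR45683, opposite the Toll family receptor gene Tehao on 2L, lay between 2.37 and 4.85 CPM in all libraries while Tehao ran from 0.46 to 8.89 CPM, lowest in glial library 2 and control library 3. CR45281, opposite the alkaline phosphatase gene Alp6 on 2R, lay between 3.83 and 7.04 CPM while Alp6 ran from 0.46 to 5.12 CPM. The spread of the log2 ratio in these was 1.36 and 0.98, against 0.27 and 0.30 for the antisense level.

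**Figure D5:**
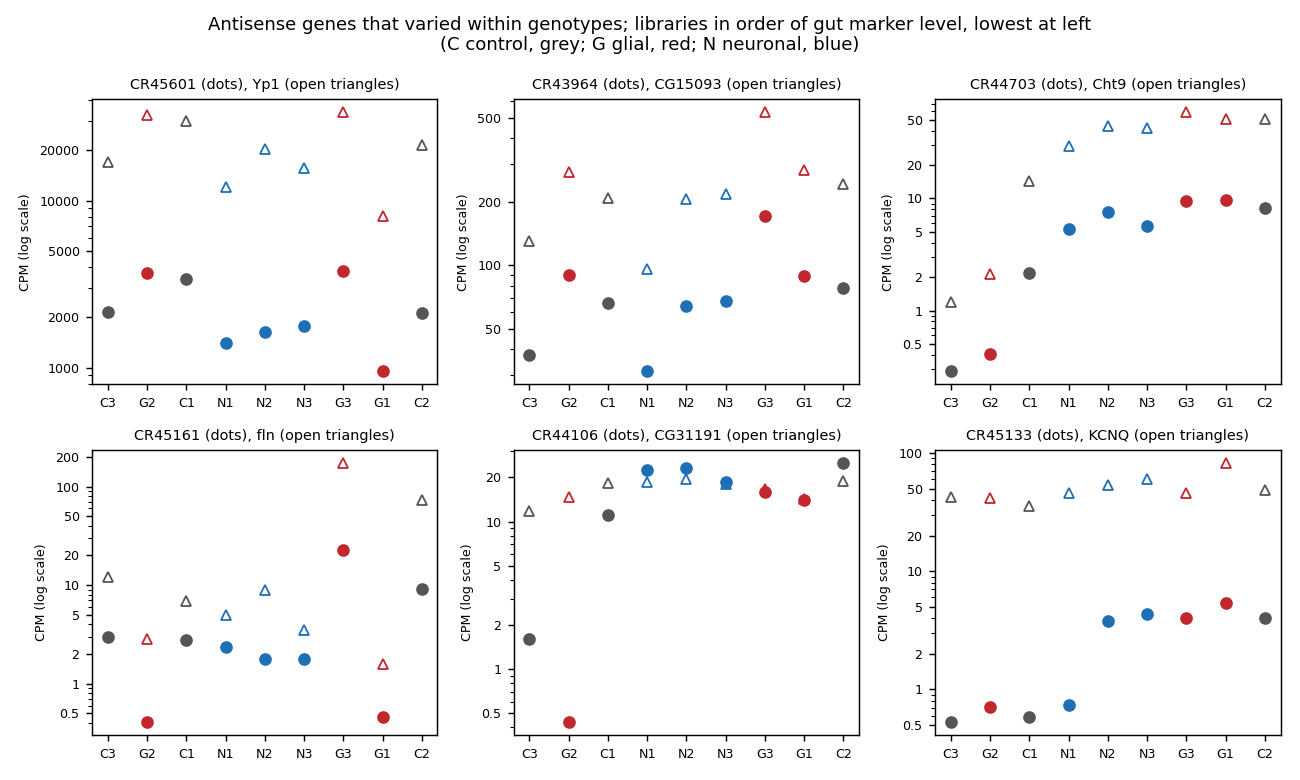
Level in CPM on a log scale (vertical axis) of 6 antisense genes that varied within genotypes (dots) and of their sense genes (open triangles), with the 9 libraries ordered by the mean level of 20 gut markers, lowest at left (horizontal axis; C control, G glial, N neuronal). CR44703, CR44106 and CR45133 are lowest at the left end, the sense genes CG31191 and KCNQ are nearly level, and CR45601 and CR43964 do not follow this order.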

How the data were processed

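Counts were deposited by the authors as 1 table of raw read counts, whole numbers per RefSeq transcript in 9 columns, 1 per library. STAR and DESeq2 are named in the submitters' processing notes without a role. Which counting program, genome build, annotation release and strand setting were used is not given in the sources used here, so coordinates are not printed. Of 31838 transcripts, 31673 matched a RefSeq gene and were summed per gene symbol; the other 165 stayed as entries of their own. The 133 antisense genes held 165 transcripts, 27 genes having more than 1. Exon overlap was computed from the Ensembl 115 annotation.

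Differences were tested by the quasi-likelihood F test of edgeR 4.0.16 (R 4.3.3), with group as the only term over all 9 libraries, after TMM scaling and filterByExpr (count minimum 10, total minimum 15), adjusted over all genes tested. SE is the log2 fold change divided by the square root of F. Ratios were tested with limma 3.58.1 on differences of log2 CPM (prior count 2) of opposite-strand pairs in which both genes passed the filter. Pairs were taken where the spans of the genes overlapped, with or without shared exon bases. SDs of log2 levels used log2 of CPM plus 0.05. Alternatives were other scalings, DESeq2 1.42.0, limma-voom, no filter, a replicate block, the 6 libraries alone, a gut covariate, single transcripts and leaving out each library. The members and lists were chosen with earlier results of these data known. Genes named are those past the threshold in any comparison or ratio, the 10 highest per kb, the 5 highest and 5 lowest relative to the sense gene, those nearest the count minimum, and CR11538; others are said to be chosen after their values were seen or are pairs of a count of 5 or fewer. Library depth, from 35550949 to 60322417 counts, gives an antisense gene at the minimum about 100 reads per library.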

Additional observations from a re-analysis of the deposited data

Results flagged for a closer look

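The difference from control was not the same in the glial and the neuronal line for 9 antisense genes, by the edgeR test of glial against neuronal libraries, which is also the test of the gap between their differences from the shared controls. The log2 differences, glial minus neuronal, were 2.26 for CR45485, 5.06 for CR11538, 1.33 for CR45600 and 2.24 for CR45955, all higher in the glial line. They were -1.89 for CR44509, -1.88 for CR45131, -2.45 for CR43469, -1.09 for CR45822 and -2.44 for CR44107, all lower. In CR44509 the difference came with higher neuronal than control levels in 2 of 3 libraries, and in CR45600 the controls lay between the lines.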

How the results depend on the processing

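Against control the glial line gave 7 antisense genes and the neuronal line 0, and the lines differed in 9. DESeq2's own test gave 14, 5 and 14, beside 8.92%, 3.57% and 7.92% of all genes with an adjusted p. In the neuronal line 1 gene passed, CR44850 each time, with library totals as the only scaling, with no low-count filter, with the 6 libraries alone and without glial replicate 3. The ratio to the sense gene, 1 in glial against control, became 2 when both genes needed a mean of at least 50 counts, adding CR45822, or when all opposite-strand genes were summed, adding CR45131; that sum also gave 2 for glial against neuronal. The cause of these shifts was not tested. Leaving out 1 library in turn gave 6 to 8, 0 to 1 and 6 to 9 genes, beside 1.56% to 3.84%, 0.137% to 0.531% and 1.33% to 3.38% of all genes. With library totals, glial against neuronal had a median over all genes of -0.15 (log2). Deviations from the group mean correlated from -0.57 to 0.37 between same-numbered libraries and from -0.61 to 0.39 between others. No pairing by number was seen, but with 3 libraries per group this cannot exclude it. With the replicate block 6, 0 and 7 genes passed, beside 2.46%, 0.131% and 2.11% of all genes, and the ratios gave 1, 0 and 1. No fold change of the 9 antisense genes that passed changed direction under the 18 alternatives run for each. CR11538 lost its call in 7 of 18 alternatives in each comparison, CR44509 in 9 and CR45600 in 4, and the other called genes kept theirs in all 18. Low counts limit CR44107, with 11 to 61 counts in glial libraries.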

Other observations

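Among the 328 antisense genes below the count minimum, 199 passed the low-count filter, and 3 genes passed the edgeR test in at least 1 comparison. These were 2 in glial against control, 1 in neuronal against control and 1 in glial against neuronal, beside 4.42%, 0.709% and 3.69% of all genes. They were not run under the alternatives. CR44996, opposite CG7227 on 2L, fell in the glial line by 1.72 ± 0.28 on the log2 scale (edgeR adjusted p = 0.011), from 1.69, 2.28 and 2.17 CPM in the controls to 0.64, 0.63 and 0.58 CPM, and CG7227 fell by 1.02 ± 0.18 (edgeR adjusted p = 0.0151). CR45139, opposite uex, differed from control in both lines, by 2.15 with repo-GAL4 and by 2.57 with elav-GAL4 (edgeR adjusted p = 0.0246 and 0.0376), each comparison using the same controls. Its level was low, at 0.18 to 0.29 CPM in the controls. The sense gene uex differed by -0.10 and 0.14 (edgeR adjusted p = 0.767 and 0.741). Relative to uex, CR45139 rose by 2.04 with repo-GAL4, which passed, and by 2.17 with elav-GAL4, which did not (limma adjusted p = 0.0391 and 0.0901). CR46246, opposite Tmc, a mechanosensory channel gene, was higher in the glial than in the neuronal line by 1.60 ± 0.33 (edgeR adjusted p = 0.0339), at 1.45 to 3.00 CPM against 0.61 to 0.72 CPM. These genes were chosen after their values were seen.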
